A study of Homo sapiens with 38 samples.

Results

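NODAL, GDF3, TDGF1, LEFTY1, LEFTY2, CER1 and FST encode an extracellular signalling circuit of the early embryo: 2 ligands, a coreceptor and 4 extracellular antagonists. The 7 genes were chosen by their symbols from a table of 43412, and all 7 were among the 24304 that passed the filter on low counts. NODAL is a ligand of the TGF-beta superfamily, and GDF3 is a related ligand. TDGF1, also called CRIPTO, is the membrane-anchored coreceptor through which NODAL engages activin receptors. The receptors phosphorylate the transcription factors SMAD2 and SMAD3, which act with SMAD4 and, at many genes, with FOXH1. In vertebrate embryos the targets of this signal include NODAL itself and its antagonists, so that the pathway both amplifies and restrains its own output. LEFTY1 and LEFTY2 block NODAL and its coreceptor, CER1 binds NODAL and other ligands, and FST (follistatin) binds activins and related ligands. In the mouse embryo NODAL is needed for the primitive streak, mesoderm and endoderm, and in human pluripotent stem cells activin and NODAL signalling helps to maintain the undifferentiated state.

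The genes were followed in total RNA from H9, an established human embryonic stem cell line, in 3 arms that activate WNT signalling at different points. In the CHIR arm, cells received 10 µM CHIR99021, an inhibitor of the kinase GSK3, and were collected after 8, 16, 24, 48 or 72 h. In the Wnt3a arm, recombinant Wnt3a ligand (rWnt3a in the labels) was given at 240 ng/ml, with collection at 8, 24, 48, 72, 96 and 120 h. The bcat arm used H9 cells with a stably integrated, doxycycline-regulated deltaN90 mutant of beta-catenin, which is constitutively active. They received 1 µg/ml doxycycline and were collected at 8, 16, 24, 48 and 72 h. Untreated 0 h cultures in mTeSR1 were made for every arm, and those of the bcat arm carried the construct without induction. Treated cells of all 3 arms were moved to RPMI1640 with B27 lacking vitamin A, renewed with the agent every day. No culture received that medium alone, so the effects of agent, medium and time cannot be told apart in a change from 0 h. Whether the bcat line is 1 clone is not given in the sources used here. The labels call the 2 replicates of a group biological without saying what separated them, so the p-values measure the spread between these libraries. Bulk RNA gives 1 value a culture, and fewer cells expressing a gene and less of its RNA in each cell cannot be told apart in any level below.

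The 19 groups held 38 labelled libraries. Both columns of the Wnt3a 72 h group were identical in every gene and counted as 1 library, which left 37. Library totals ran from 2.45 M to 65.7 M estimated counts with a median of 18.99 M, and both extremes were Wnt3a 0 h libraries, replicate 1 and replicate 2. Cytosolic ribosomal RNA took 0.419% to 60.3% of the counts (median 5.13%), and the 3 libraries with most of it were bcat 0 h replicate 1, bcat 24 h replicate 1 and bcat 48 h replicate 2. All 7 embryonic stem cell markers checked were present in every 0 h library, POU5F1 at 899 to 1237 CPM and NANOG at 55.9 to 153 CPM, where CPM is the count relative to the TMM-scaled library size. CTNNB1, the gene of beta-catenin, had 1994 to 2908 CPM in the 10 induced bcat libraries, against 652 and 750.1 CPM in the bcat 0 h libraries. More genes were called against 0 h in the CHIR group of 48 h than in that of 72 h, and both are used as labelled.

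Sequence decides how far the counts of these genes can be told from those of their relatives, so the coding sequences of the closest pairs were compared in GENCODE release 29 transcripts (GRCh38). LEFTY1 (chr1:225886282-225911382, minus strand) and LEFTY2 (chr1:225936598-225941489, minus strand) lie side by side, and their coding sequences were identical at 97.2% of 1098 aligned bases. TDGF1 (chr3:46574534-46582463, plus strand) has a transcribed processed pseudogene, TDGF1P3 (chrX:110520312-110523021, plus strand), identical to it at 98.8% of 564 bases. The first 90 bases of the TDGF1 coding sequence are shown beside their match in TDGF1P3, and capitals mark the 2 bases that differ.
TDGF1: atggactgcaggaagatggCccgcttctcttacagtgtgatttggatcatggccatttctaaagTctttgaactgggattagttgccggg
TDGF1P3: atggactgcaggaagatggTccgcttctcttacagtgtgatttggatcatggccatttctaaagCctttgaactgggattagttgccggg
Of the 31-base words in its annotated transcripts, LEFTY1 shared 49.1% with another gene, 45.9% with AL117348.2 and 33.0% with LEFTY2. LEFTY2 shared 29.9%, with 25.7% of its words shared with LEFTY1 and 23.2% with AL117348.2. TDGF1 shared 50.6%, nearly all of it with TDGF1P3 (47.9%). NODAL (chr10:70432315-70447951, minus strand), GDF3 (chr12:7689782-7695776, minus strand) and CER1 (chr9:14719724-14722717, minus strand) shared 0%, and FST (chr5:53480409-53487134, plus strand) shared 0.367%. Reads that fall on shared words were divided between genes by estimation, so the levels of LEFTY1, LEFTY2 and TDGF1 carry that uncertainty, and TDGF1P3 took 19.9% to 26.7% (median 23.2%) of the summed TDGF1 and TDGF1P3 counts in the 27 libraries with at least 500 of them.

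The promoter of CER1 is shown because this gene had the largest fitted rise of the 7 and because letters used by the NODAL pathway stand in it. It is the RefSeq window of the 250 bases before the start of transcription (GRCh38.p14, chr9:14722734-14722983, minus strand), and capitals mark a SMAD word, CAGACA, at bases -218 to -213 and a FOXH1 word, AATACAC, at -154 to -148, counted from the start site.
CER1 promoter: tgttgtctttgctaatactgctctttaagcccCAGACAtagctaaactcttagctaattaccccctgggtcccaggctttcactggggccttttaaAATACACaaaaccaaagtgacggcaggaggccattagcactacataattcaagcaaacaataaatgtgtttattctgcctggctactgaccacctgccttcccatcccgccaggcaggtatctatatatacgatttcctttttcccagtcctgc
Windows of 250 bases were searched on both strands. FOXH1 was searched as AATCCAC in one form or AATACAC in the other, and SMAD as CAGACA. TCF/LEF, the partners of beta-catenin, were searched as CTTTGAA in a first form, CTTTGAT in another, CTTTGTA in a further form or CTTTGTT in the last. None of these words contains another. Over 35116 promoters, 3.52% held a FOXH1 word (1.59% held AATACAC), 13.6% held CAGACA and 11.96% held a TCF/LEF word (4.499% held CTTTGTT). The table of promoters held 4 of the 7 genes, and LEFTY1, LEFTY2 and TDGF1 were not among them. GDF3 had CTTTGTT at -156 to -150 on its own strand. The windows of NODAL and FST held none of these letters. A match describes letters and not a bound site.

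Members of the circuit changed in every arm and at every time, and in the Wnt3a arm those called up to 72 h were all higher than at 0 h. A gene was called at an adjusted p below 0.05 in edgeR's quasi-likelihood test, adjusted over all 24304 genes of a comparison. In CHIR99021 cultures, 3 of 7 were higher and 1 lower at 8 h, where 9.2% and 11.7% of all genes were called higher and lower. At 16 h 4 were higher and 2 lower (all genes, 6.55% and 9.34%), and at 24 h 3 and 1 (all genes, 5.91% and 8.61%). At 48 h the balance turned to 1 higher, FST, and 4 lower (all genes, 15.7% and 18.1%), and at 72 h it was 2 and 3 (all genes, 11.5% and 13.4%). The median log2 change of the 7 was 1.64 at 16 h and -1.67 at 72 h, beside medians of -0.02 and 0.00 over all genes.

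In Wnt3a cultures 4 of 7 were higher and 0 lower at 8 h (all genes, 2.28% and 1.18%), 5 and 0 at 24 h (all genes, 9.32% and 10.9%), and 6 and 0 at 48 h (all genes, 7.58% and 8.56%). At 72 h, with 1 library, 5 were higher and 0 lower (all genes, 8.43% and 7.94%). At 96 h 3 were higher and 1 lower (all genes, 18.8% and 21%), and at 120 h 2, CER1 and FST, were higher and 4 lower (all genes, 12.2% and 15.6%). In the bcat line with doxycycline 3 were higher and 2 lower at 8 h (all genes, 10.7% and 8.01%), 4 and 1 at 16 h (all genes, 6.23% and 4.69%), and 2 and 2 at 24 h (all genes, 6.87% and 5.95%). At 48 h all 7 were called, 3 higher and 4 lower (all genes, 11.1% and 10.1%), and at 72 h FST alone was higher and 4 were lower (all genes, 13.6% and 13.6%). The median log2 change of the 7 at 48 h was 2.55 in Wnt3a cultures and -2.22 in the induced bcat line, beside 0.00 and 0.03 over all genes. The call counts are 24 of 35 tests for CHIR99021, 30 of 42 for Wnt3a and 26 of 35 for bcat, and without the 3 bcat libraries richest in ribosomal RNA and the shallow Wnt3a 0 h replicate 1 they were 24, 30 and 24.

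**Figure D1:**
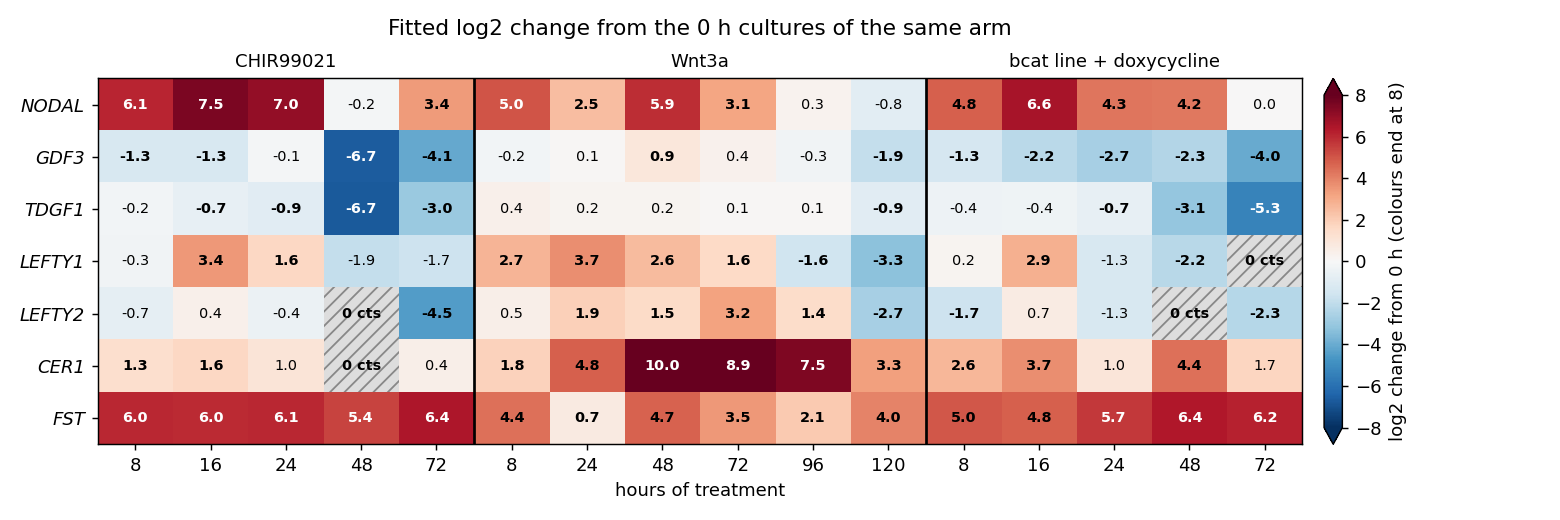
Fitted log2 change from the 0 h cultures of the same arm for the 7 genes (rows) at each time in hours (columns), with the value printed in each cell and bold where the adjusted p was below 0.05. Hatched cells had 0 counts in the treated group, so no fold is shown. FST was higher in all 16 columns, and NODAL was higher in 12 of them.

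NODAL rose early in all 3 arms, and how long it stayed up differed. Levels are given for replicates 1 and 2. In CHIR99021 cultures NODAL had 0.302 and 0.385 CPM at 0 h, 18.03 and 31.8 at 8 h and 67.0 and 65.3 at 16 h. Later NODAL values were 48.7 and 45.5 at 24 h, 0.344 and 0.272 at 48 h and 2.64 and 5.97 at 72 h. Its level was high only between 8 and 24 h, overlapped with the 0 h cultures at 48 h, and lay above them again at 72 h. The log2 changes from 0 h that were called were 6.11 ± 0.35 at 8 h (adjusted p = 3.94e-13), 7.53 ± 0.34 at 16 h (adjusted p = 2.54e-15), 7.04 ± 0.34 at 24 h (adjusted p = 7.70e-15) and 3.41 ± 0.40 at 72 h (adjusted p = 1.38e-07), each with its standard error and n = 2 and 2. Without CHIR 72 h replicate 1 the last was 4.06. At 48 h the change was -0.16 ± 0.64 (adjusted p = 0.893). In Wnt3a cultures NODAL had 3.56 and 2.66 CPM at 0 h, 93.7 and 85.6 at 8 h and 16.4 and 14.5 at 24 h. Later NODAL values were 157 and 172 at 48 h, 24.5 at 72 h, 3.29 and 3.50 at 96 h and 1.90 and 1.21 at 120 h, with 1 library at 72 h. The pattern had 2 peaks, at 8 and 48 h, with a lower level at 24 h that still lay above both 0 h libraries. Log2 changes were 5.01 ± 0.29 at 8 h (adjusted p = 1.19e-12), 2.47 ± 0.29 at 24 h (adjusted p = 4.24e-07), 5.89 ± 0.30 at 48 h (adjusted p = 2.09e-14) and 3.14 ± 0.31 at 72 h (adjusted p = 1.56e-08), and they were 0.29 ± 0.31 at 96 h (adjusted p = 0.479) and -0.82 ± 0.37 at 120 h (adjusted p = 0.10002). Across the bcat time course NODAL had 0.294 and 0.963 CPM at 0 h (1 and 9 counts), 19.3 and 24.9 at 8 h and 76.9 and 74.1 at 16 h. Later NODAL values were 15.6 and 14.8 at 24 h, 15.8 and 12.7 at 48 h and 0.817 and 0.738 at 72 h. It was highest at 16 h, kept a plateau at 24 and 48 h, and at 72 h lay within the range of the 0 h libraries. The called changes were 4.80 ± 0.43 at 8 h (adjusted p = 3.36e-09), 6.59 ± 0.39 at 16 h (adjusted p = 2.00e-12), 4.28 ± 0.44 at 24 h (adjusted p = 3.73e-08) and 4.21 ± 0.45 at 48 h (adjusted p = 3.50e-08), and the change at 72 h was 0.01 ± 0.73 (adjusted p = 1.00). Without bcat 0 h replicate 2, which had the higher of the 0 h values, they were 6.19, 7.98, 5.66 and 5.59.

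**Figure D2:**
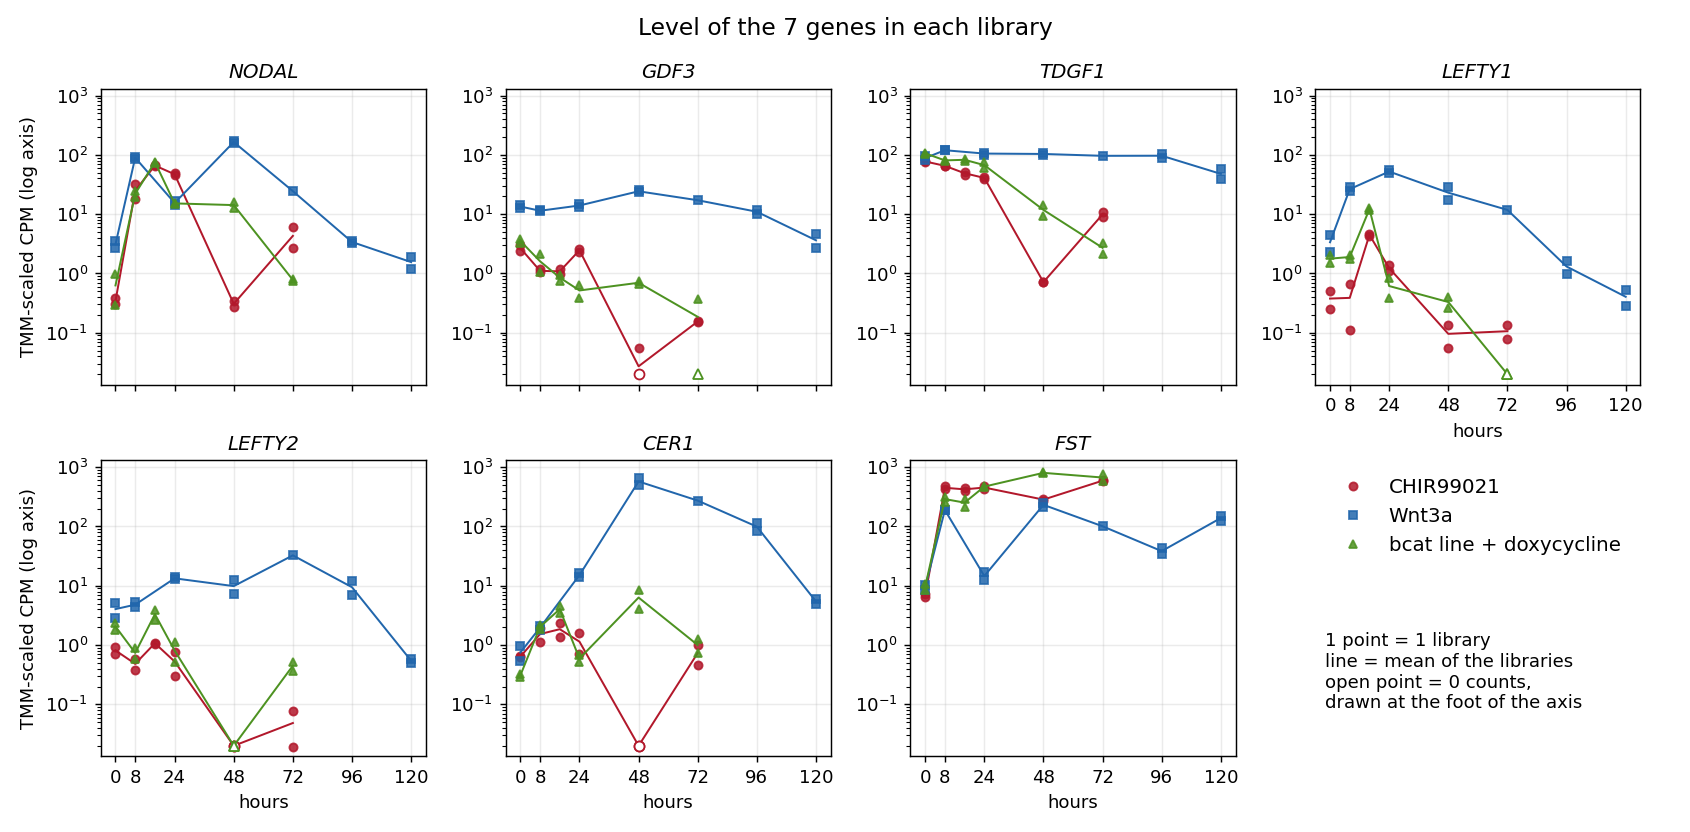
Level of each gene in every library, in TMM-scaled CPM on a log axis, against hours in the 3 arms; points are libraries, lines join group means, and open points at the foot of the axis are libraries with 0 counts. In the CHIR arm the mean of every gene was lower at 48 h than at 24 h, whereas in the Wnt3a arm CER1 and NODAL were highest at 48 h.

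GDF3, the other ligand, fell in the CHIR and bcat arms and was held or raised for most of the Wnt3a time course. In CHIR99021 cultures GDF3 had 2.36 and 2.99 CPM at 0 h, 1.17 and 1.04 at 8 h and 0.974 and 1.198 at 16 h. Later GDF3 values were 2.59 and 2.34 at 24 h, 0 and 0.0544 at 48 h and 0.154 and 0.155 at 72 h. The libraries of 8, 16, 48 and 72 h lay below both of 0 h, and those of 24 h overlapped with them. The called changes were -1.27 ± 0.32 at 8 h (adjusted p = 0.00391), -1.28 ± 0.34 at 16 h (adjusted p = 0.00798) and -4.08 ± 0.44 at 72 h (adjusted p = 1.04e-08). At 48 h 1 count was left over both libraries, against 148 at 0 h. The ratio of these sums, scaled by the summed library sizes, was 131-fold lower, with a counting interval of 23.1 to 5207. It therefore differs from a ratio of the mean CPM. The calls at 8 and 16 h depended on single libraries. The change at 8 h was -1.08 (adjusted p = 0.0744) without CHIR 0 h replicate 2, and that at 16 h was -1.08 (adjusted p = 0.109) without CHIR 0 h replicate 2, -1.16 (adjusted p = 0.0623) without CHIR 16 h replicate 1 and -1.44 (adjusted p = 0.0678) without CHIR 16 h replicate 2. In Wnt3a cultures GDF3 had 14.2 and 12.7 CPM at 0 h, 11.7 and 11.2 at 8 h and 13.3 and 14.7 at 24 h. Later GDF3 values were 23.4 and 25.3 at 48 h, 17.2 at 72 h, 10.2 and 11.8 at 96 h and 2.69 and 4.57 at 120 h. Levels at 48 h lay above and those at 120 h below both 0 h libraries. It rose at 48 h by 0.88 ± 0.27 (adjusted p = 0.0244) and was lower at 120 h, -1.88 ± 0.30 (adjusted p = 1.28e-05). The rise at 48 h was 0.78 (adjusted p = 0.219) without Wnt3a 0 h replicate 2, 0.93 (adjusted p = 0.0670) without Wnt3a 48 h replicate 1 and 0.80 (adjusted p = 0.137) without Wnt3a 48 h replicate 2. Across the bcat time course GDF3 had 3.23 and 3.85 CPM at 0 h, 1.05 and 2.16 at 8 h and 0.753 and 0.952 at 16 h. Later GDF3 values were 0.384 and 0.650 at 24 h, 0.741 and 0.653 at 48 h and 0.371 and 0 at 72 h, and every treated library lay below both 0 h libraries. It fell at all 5 times, with changes of -1.35 ± 0.38 at 8 h (adjusted p = 0.0103), -2.15 ± 0.40 at 16 h (adjusted p = 0.000341), -2.68 ± 0.40 at 24 h (adjusted p = 1.37e-05), -2.34 ± 0.44 at 48 h (adjusted p = 0.000150) and -4.04 ± 0.55 at 72 h (adjusted p = 8.92e-07). The change at 8 h was -1.18 (adjusted p = 0.204) without bcat 0 h replicate 2 and -0.75 (adjusted p = 0.294) without bcat 8 h replicate 1, and at 72 h it was -3.27 without bcat 72 h replicate 2.

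TDGF1, the coreceptor, fell in the CHIR and bcat arms and was not called in Wnt3a cultures until 120 h. In CHIR99021 cultures TDGF1 had 75.9 and 79.1 CPM at 0 h, 65.7 and 64.9 at 8 h and 51.6 and 46.5 at 16 h. Later TDGF1 values were 39.4 and 42.3 at 24 h, 0.722 and 0.707 at 48 h and 9.06 and 10.8 at 72 h. All 10 treated libraries lay below both 0 h libraries, and the lowest were those of 48 h. Changes were -0.66 ± 0.15 at 16 h (adjusted p = 0.00276), -0.92 ± 0.16 at 24 h (adjusted p = 6.89e-05), -6.75 ± 0.24 at 48 h (adjusted p = 1.18e-19) and -2.99 ± 0.17 at 72 h (adjusted p = 1.48e-14), and at 8 h -0.25 ± 0.15 (adjusted p = 0.282). The change at 16 h was -0.56 (adjusted p = 0.0667) without CHIR 16 h replicate 2. For the bcat line, TDGF1 had 108 and 104 CPM at 0 h, 82.9 and 78.6 at 8 h and 86.3 and 78.9 at 16 h. Later TDGF1 values were 59.5 and 74.9 at 24 h, 14.2 and 9.41 at 48 h and 2.15 and 3.27 at 72 h, with every treated library below both 0 h libraries. It was lower at 24, 48 and 72 h, with changes of -0.65 ± 0.16 at 24 h (adjusted p = 0.00433), -3.12 ± 0.18 at 48 h (adjusted p = 3.16e-14) and -5.33 ± 0.22 at 72 h (adjusted p = 1.19e-17), and the changes at 8 and 16 h were -0.39 ± 0.16 (adjusted p = 0.0835) and -0.36 ± 0.16 (adjusted p = 0.158). The change at 24 h was -0.53 (adjusted p = 0.0719) without bcat 24 h replicate 1. In Wnt3a cultures TDGF1 had 80.5 and 96.3 CPM at 0 h, 121 and 119 at 8 h and 109 and 101.3 at 24 h. Later TDGF1 values were 100.3 and 107 at 48 h, 96.4 at 72 h, 105 and 88.4 at 96 h and 57.2 and 38.5 at 120 h. From 8 to 96 h the fitted changes ran from 0.11 to 0.42 and none was called, and at 120 h it fell, with a change of -0.90 ± 0.16 (adjusted p = 5.86e-05), with both libraries below those of 0 h. With the counts of TDGF1 and its pseudogenes summed, all 16 changes from 0 h stayed on the same side of the threshold.

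The decline of TDGF1 went along with lower embryonic stem cell markers in the CHIR and bcat arms. At CHIR 48 h 6 of the 7 markers were called lower and 0 higher (all genes, 18.1% and 15.7%). Their summed level was 1937 to 1956 CPM, against 4235 to 4301 CPM at CHIR 0 h. At bcat 72 h 6 were lower and 0 higher (all genes, 13.6% and 13.6%), with 1986 to 2226 CPM, against 3955 to 4500.2 CPM at bcat 0 h. In Wnt3a cultures at 96 h 5 were lower and 0 higher (all genes, 21% and 18.8%), and TDGF1 was not called. The summed level of the markers there was 2329 to 2563 CPM, against 3904 to 4651 CPM at Wnt3a 0 h. None of the 7 markers was at 0 in any group. Their part in the level of TDGF1 was not tested.

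LEFTY1, an antagonist, had a short peak at 16 h in the CHIR and bcat arms and a longer one in Wnt3a cultures. In CHIR99021 cultures LEFTY1 had 0.251 and 0.503 CPM at 0 h, 0.112 and 0.664 at 8 h and 4.71 and 4.25 at 16 h. Later LEFTY1 values were 1.095 and 1.37 at 24 h, 0.137 and 0.0544 at 48 h and 0.135 and 0.0776 at 72 h, and the libraries of 16 and 24 h lay above both of 0 h. It rose by 3.45 ± 0.42 at 16 h (adjusted p = 7.02e-07) and 1.65 ± 0.49 at 24 h (adjusted p = 0.0215), and the change at 48 h was -1.89 ± 0.76 (adjusted p = 0.0551). At 24 h the change was 1.33 (adjusted p = 0.157) without CHIR 0 h replicate 1, 2.32 (adjusted p = 0.0430) without CHIR 0 h replicate 2 and 1.43 (adjusted p = 0.262) without CHIR 24 h replicate 2, and at 16 h it was 4.12 without CHIR 0 h replicate 2. Across the bcat time course LEFTY1 had 2.06 and 1.498 CPM at 0 h, 2.02 and 1.77 at 8 h and 12.7 and 11.7 at 16 h. Later LEFTY1 values were 0.384 and 0.845 at 24 h, 0.399 and 0.261 at 48 h and 0 and 0 at 72 h. It rose at 16 h by 2.87 ± 0.42 (adjusted p = 2.29e-05) and was lower at 48 h, with a change of -2.22 ± 0.68 (adjusted p = 0.0178), a call that ended without any 1 of the 4 libraries compared, at changes of -2.04, -2.52, -2.65 and -2.05 (adjusted p = 0.0705, 0.0816, 0.0907 and 0.0622, without bcat 0 h replicates 1 and 2 and bcat 48 h replicates 1 and 2). At 72 h both bcat libraries had 0 counts. LEFTY1 was at least 12.6-fold lower than at 0 h (adjusted p = 9.53e-05), taking 3 counts over the group as the floor. That bound covers counting error only. LEFTY2 had 10 counts at bcat 72 h, and the division of shared reads between the genes can move the bound. With the counts of LEFTY1 and LEFTY2 summed, the change was -3.12 (adjusted p = 8.56e-06).

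In Wnt3a cultures LEFTY1 had 2.26 and 4.46 CPM at 0 h, 28.7 and 24.2 at 8 h and 56.2 and 48.6 at 24 h. Later LEFTY1 values were 17.6 and 28.5 at 48 h, 11.8 at 72 h, 0.968 and 1.65 at 96 h and 0.524 and 0.285 at 120 h. Levels from 8 to 72 h lay above both 0 h libraries and those from 96 h on below them. It rose by 2.73 ± 0.33 at 8 h (adjusted p = 2.34e-06), 3.72 ± 0.34 at 24 h (adjusted p = 4.96e-09), 2.55 ± 0.33 at 48 h (adjusted p = 1.50e-06) and 1.57 ± 0.37 at 72 h (adjusted p = 0.00316) and fell at 96 and 120 h, with changes of -1.59 ± 0.38 at 96 h (adjusted p = 0.00113) and -3.26 ± 0.49 at 120 h (adjusted p = 6.69e-06). Without Wnt3a 0 h replicate 2 the rises were 3.54, 4.53, 3.36 and 2.38, and the falls were -0.78 (adjusted p = 0.490) at 96 h and -2.45 (adjusted p = 0.0680) at 120 h.

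LEFTY2, the neighbouring antagonist, was highest in Wnt3a cultures at 72 h and lowest in the other arms at 48 h. In Wnt3a cultures LEFTY2 had 5.17 and 2.91 CPM at 0 h, 5.23 and 4.37 at 8 h and 12.8 and 13.9 at 24 h. Later LEFTY2 values were 7.18 and 12.54 at 48 h, 32.6 at 72 h, 11.95 and 6.95 at 96 h and 0.589 and 0.499 at 120 h, and libraries from 24 to 96 h lay above both of 0 h. It rose by 1.94 ± 0.36 at 24 h (adjusted p = 0.000253), 1.53 ± 0.36 at 48 h (adjusted p = 0.00301), 3.22 ± 0.40 at 72 h (adjusted p = 6.52e-07) and 1.44 ± 0.36 at 96 h (adjusted p = 0.00191) and fell at 120 h, -2.66 ± 0.46 (adjusted p = 6.35e-05). Without Wnt3a 0 h replicate 2 the changes at 24, 48 and 96 h were 1.37, 0.96 and 0.87, with adjusted p = 0.0804, 0.259 and 0.224. The change at 48 h was 1.03 (adjusted p = 0.126) without Wnt3a 48 h replicate 2, and that at 96 h 0.99 (adjusted p = 0.0582) without Wnt3a 96 h replicate 1. In CHIR99021 cultures LEFTY2 had 0.704 and 0.918 CPM at 0 h, 0.586 and 0.379 at 8 h and 1.05 and 1.09 at 16 h. Later LEFTY2 values were 0.299 and 0.757 at 24 h, 0 and 0 at 48 h and 0.0193 and 0.0776 at 72 h. At 48 h, with 0 counts, it was at least 13.3-fold lower than at 0 h, a bound that covers counting error only. At 72 h 2 counts were left over both libraries. The ratio of summed counts, scaled by summed library size, was 27.1-fold lower, with a counting interval of 7.09 to 231. In the bcat line LEFTY2 had 1.76 and 2.35 CPM at 0 h, 0.589 and 0.884 at 8 h and 3.97 and 2.67 at 16 h. Later LEFTY2 values were 0.511 and 1.105 at 24 h, 0 and 0 at 48 h and 0.371 and 0.527 at 72 h. It was lower at 8 h, -1.66 ± 0.50 (adjusted p = 0.0175), and at 72 h, -2.28 ± 0.58 (adjusted p = 0.00345). At 48 h, with 0 counts, it was at least 18.5-fold lower than at 0 h, again a bound for counting error only. The fall at 8 h was -1.38 (adjusted p = 0.317) without bcat 0 h replicate 2 and -1.28 (adjusted p = 0.221) without bcat 8 h replicate 1, and that at 72 h was -2.00 (adjusted p = 0.127) without bcat 0 h replicate 2.

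The balance within the pair shifted over time in Wnt3a cultures. LEFTY1 made up 84.6% and 84.7% of the LEFTY1 and LEFTY2 counts at 8 h, 81.5% and 77.7% at 24 h, 71.1% and 69.4% at 48 h, 26.6% at 72 h (1 library), and 7.49% and 19.2% at 96 h. The 95% Wilson intervals of the libraries of 72 and 96 h, 24.4% to 28.96%, 4.90% to 11.3% and 14.2% to 25.6%, lay below those of 8 to 48 h, of which the lowest began at 64.9%. At Wnt3a 0 h the share was 30.4% and 60.6%, with intervals of 15.6% to 50.9% and 56.2% to 64.7%, so the starting share differed between the libraries. At 16 h it was 81.7% and 79.6% in CHIR99021 cultures and 76.1% and 81.5% in the induced bcat line. The intervals cover counting error only, and the way shared reads were divided between the genes can move the share. With the pair summed, Wnt3a cultures at 96 h had a change of 0.54 (adjusted p = 0.0924), where LEFTY1 alone fell and LEFTY2 alone rose. Summing also ended the LEFTY1 call at CHIR 24 h, at 0.61 (adjusted p = 0.258), and the LEFTY2 call at bcat 8 h, at -0.55 (adjusted p = 0.293). Other calls were made by it. The pair was lower at bcat 24 h (-1.29, adjusted p = 0.0111), where neither gene alone was called. At CHIR 48 and 72 h the pair was lower (-3.48 and -2.94, adjusted p = 5.68e-06 and 1.31e-05), where LEFTY1 alone was not called. At bcat 48 h, where LEFTY2 had 0 counts and LEFTY1 9, the summed change was -3.42 (adjusted p = 4.05e-06). AL117348.2 was not part of the sum.

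**Figure D3:**
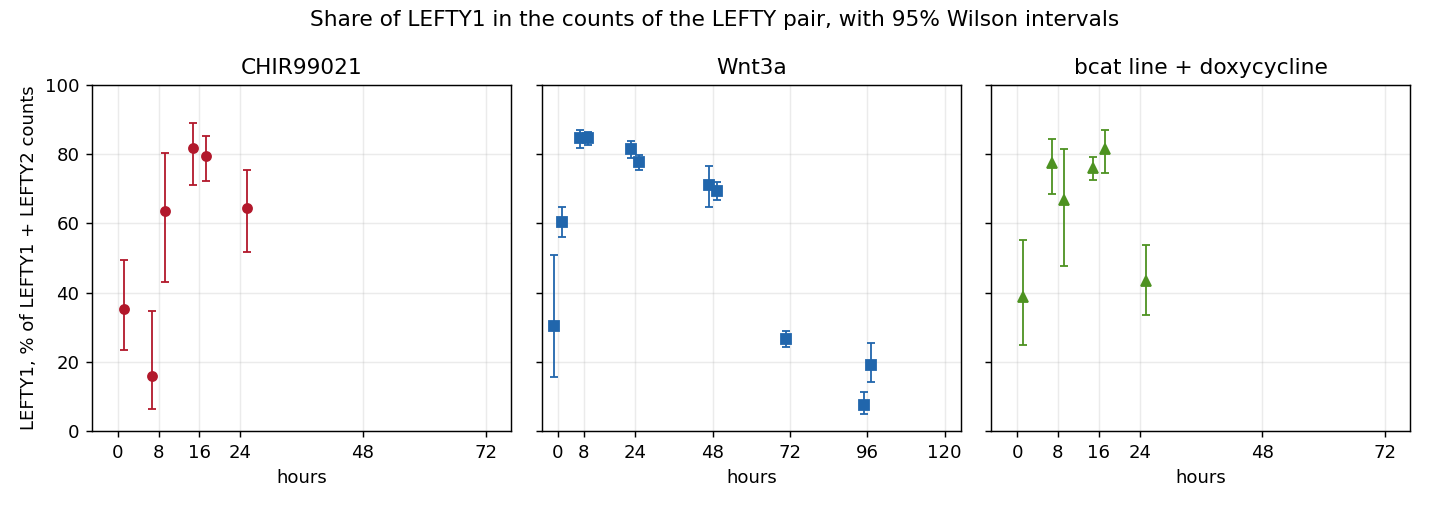
LEFTY1 as a percentage of the summed LEFTY1 and LEFTY2 counts, 1 point a library with at least 20 counts of the pair, against hours in each arm; bars are 95% Wilson intervals. In Wnt3a cultures the share lay between 69.4% and 84.7% from 8 to 48 h and between 7.49% and 26.6% at 72 and 96 h.

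CER1 rose by far the most in Wnt3a cultures and stayed low in the other arms. In Wnt3a cultures CER1 had 0.970 and 0.528 CPM at 0 h, 1.80 and 2.13 at 8 h and 16.3 and 14.0 at 24 h. Later CER1 values were 502 and 646 at 48 h, 273 at 72 h, 115 and 83.6 at 96 h and 6.03 and 4.85 at 120 h. All treated libraries lay above both 0 h libraries, with the peak at 48 h and a decline after it. Log2 changes were 1.84 ± 0.41 at 8 h (adjusted p = 0.00742), 4.75 ± 0.37 at 24 h (adjusted p = 9.55e-10), 10.00 ± 0.37 at 48 h (adjusted p = 2.98e-16), 8.93 ± 0.38 at 72 h (adjusted p = 7.37e-15), 7.47 ± 0.36 at 96 h (adjusted p = 3.38e-14) and 3.28 ± 0.40 at 120 h (adjusted p = 5.12e-07). Without Wnt3a 0 h replicate 2 they were 1.04 (adjusted p = 0.657), 3.95, 9.20, 8.13, 6.67 and 2.48 (adjusted p = 0.0682), and the first was 1.69 (adjusted p = 0.122) without Wnt3a 8 h replicate 2. In CHIR99021 cultures CER1 had 0.654 and 0.622 CPM at 0 h, 1.93 and 1.14 at 8 h and 1.38 and 2.32 at 16 h. Later CER1 values were 0.697 and 1.59 at 24 h, 0 and 0 at 48 h and 1.00 and 0.465 at 72 h. It rose, with changes of 1.33 ± 0.42 at 8 h (adjusted p = 0.0242) and 1.64 ± 0.43 at 16 h (adjusted p = 0.00881), and at 48 h, with 0 counts, it was at least 10.03-fold lower than at 0 h. The rise at 8 h was 1.36 (adjusted p = 0.0820) without CHIR 0 h replicate 1, 1.28 (adjusted p = 0.171) without CHIR 0 h replicate 2 and 0.84 (adjusted p = 0.397) without CHIR 8 h replicate 1, and that at 16 h was 1.59 (adjusted p = 0.0990) without CHIR 0 h replicate 2 and 1.14 (adjusted p = 0.314) without CHIR 16 h replicate 2. Across the bcat time course CER1 had 0.294 and 0.321 CPM at 0 h (1 and 3 counts), 1.89 and 2.16 at 8 h and 4.54 and 3.52 at 16 h. Later CER1 values were 0.511 and 0.672 at 24 h, 8.61 and 4.05 at 48 h and 1.26 and 0.738 at 72 h, all treated libraries lying above both 0 h libraries. It rose by 2.63 ± 0.77 at 8 h (adjusted p = 0.0171), 3.72 ± 0.67 at 16 h (adjusted p = 0.000442) and 4.42 ± 0.64 at 48 h (adjusted p = 8.19e-06), and the changes at 24 and 72 h were 0.98 ± 0.93 (adjusted p = 0.558) and 1.71 ± 0.93 (adjusted p = 0.185). The rise at 8 h was 2.61 (adjusted p = 0.0536) without bcat 0 h replicate 1, 2.72 (adjusted p = 0.260) without bcat 0 h replicate 2 and 2.76 (adjusted p = 0.0536) without bcat 8 h replicate 1, that at 16 h was 3.81 (adjusted p = 0.0632) without bcat 0 h replicate 2, and that at 48 h was 3.67 without bcat 48 h replicate 1.

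Definitive endoderm markers were called higher in Wnt3a cultures, most of them from 48 h on. CER1 was at its highest at 48 h and was lower at each later time, while the summed markers were not. Of 9 markers, 1 was called higher at 8 h, 4 at 24 h and 7 at 48 h, with 0 lower (all genes higher, 2.28%, 9.32% and 7.58%). At 72, 96 and 120 h 9 were higher (all genes, 8.43%, 18.8% and 12.2%), with 0 lower. Their summed level was 0.969 to 1.62 CPM at 0 h, 61.1 to 74.8 CPM at 48 h, 206 CPM at 72 h, 253 to 335 CPM at 96 h and 245 to 369.9 CPM at 120 h. CER1 meanwhile had 502 and 646 CPM at 48 h, 273 CPM at 72 h, 115 and 83.6 CPM at 96 h and 6.03 and 4.85 CPM at 120 h. SOX17, a defining factor of endoderm, had 82.4 and 146 CPM at 120 h and 0 CPM in every CHIR library of 0 to 72 h. In CHIR99021 cultures 5 of the 9 were higher and 2 lower at 48 h (all genes, 15.7% and 18.1%). The counts were the same at 72 h (all genes, 11.5% and 13.4%). In the induced bcat line 4 were higher and 1 lower at 48 h (all genes, 11.1% and 10.1%). At 72 h 3 were higher and 1 lower (all genes, 13.6% and 13.6%). The share of markers called higher lay above that of all genes in both arms at both times. Nothing is read from marker counts near the share of all genes. The sum reached 246 to 276 CPM at CHIR 48 h, of which CXCR4, also made by other cell types, gave 237 and 270.0 CPM. FOXA2 and GATA6, endoderm transcription factors, were called higher there from low levels by edgeR (adjusted p = 0.00614 and 0.000115). FOXA2 had 0.218 to 0.275 CPM at CHIR 48 h, against 0 to 0.0296 CPM at CHIR 0 h. GATA6 had 0.790 to 1.197 CPM at CHIR 48 h, against 0.0296 to 0.1006 CPM at CHIR 0 h. Of 8 mesoderm markers, 5 were higher and 2 lower at CHIR 48 h (all genes, 15.7% and 18.1%). Their sum was 306 to 334 CPM, against 162 to 165 CPM at CHIR 0 h, nearly all of the 0 h sum being KDR. In Wnt3a cultures at 48 h 3 were higher and 1 lower (all genes, 7.58% and 8.56%), with 114 to 119.8 CPM, against 133 to 148 CPM at Wnt3a 0 h. At bcat 72 h 6 were higher and 1 lower (all genes, 13.6% and 13.6%). The sum there was 211 to 281 CPM, against 200.3 to 263 CPM at bcat 0 h. MSGN1, MESP1 and HAND1 were at 0 at bcat 0 h. Of 5 neural ectoderm markers tested, at most 2 were higher and at most 3 lower at any time (all genes, 2.28% to 18.8% and 1.18% to 21%). Of 6 amnion and trophoblast markers tested, 4 were higher and 2 lower at Wnt3a 120 h (all genes, 12.2% and 15.6%). CER1 and FST were higher and TDGF1, GDF3, LEFTY1 and LEFTY2 lower at that time. The summed level of all 8 in the list was 40.7 to 41.7 CPM, against 16.4 to 21.3 CPM at Wnt3a 0 h. In the other untreated cultures this sum was 46.4 to 54.4 CPM at bcat 0 h and 13.2 to 13.8 CPM at CHIR 0 h. The part of these cell types in the levels of CER1 and the other members was not tested.

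**Figure D4:**
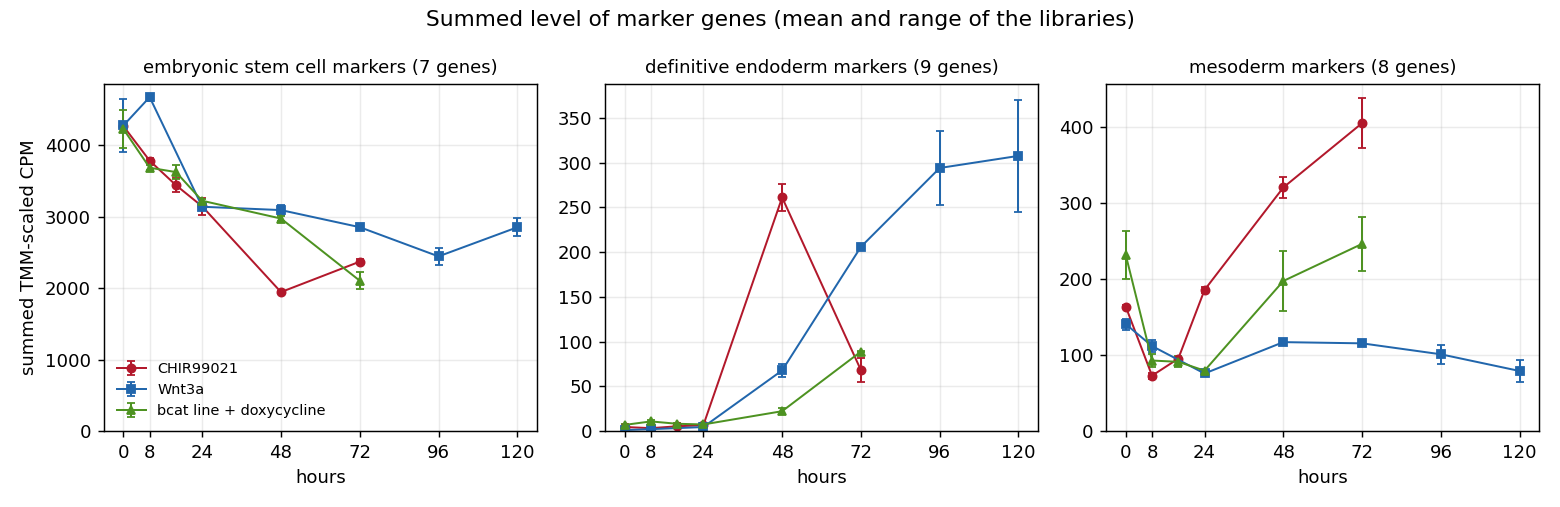
Summed TMM-scaled CPM of the embryonic stem cell, definitive endoderm and mesoderm marker lists against hours in each arm; points are group means and bars span the libraries. The endoderm sum stayed at or above 206 CPM from 72 h on in Wnt3a cultures, and in CHIR99021 cultures it stood at 246 to 276 CPM at 48 h, most of it CXCR4.

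FST, the activin antagonist, rose in all 3 arms at every time, and in Wnt3a cultures it dipped at 24 h. In CHIR99021 cultures FST had 7.29 and 6.43 CPM at 0 h, 475 and 423 at 8 h and 392 and 454 at 16 h. Later FST values were 424 and 482 at 24 h, 294 and 274 at 48 h and 586 and 597 at 72 h, every treated library lying far above both of 0 h. Log2 changes were 6.04 ± 0.20 at 8 h (adjusted p = 4.47e-19), 5.95 ± 0.20 at 16 h (adjusted p = 3.07e-19), 6.06 ± 0.20 at 24 h (adjusted p = 1.73e-19), 5.38 ± 0.19 at 48 h (adjusted p = 4.06e-19) and 6.44 ± 0.20 at 72 h (adjusted p = 2.63e-20). For the bcat line, FST had 10.9 and 8.45 CPM at 0 h, 317 and 262 at 8 h and 209 and 296 at 16 h. Later FST values were 481 and 459.6 at 24 h, 814 and 791 at 48 h and 753 and 585 at 72 h, again with no overlap with 0 h. Changes were 4.97 ± 0.21 at 8 h (adjusted p = 6.33e-16), 4.76 ± 0.21 at 16 h (adjusted p = 1.36e-15), 5.66 ± 0.21 at 24 h (adjusted p = 2.85e-17), 6.43 ± 0.21 at 48 h (adjusted p = 3.74e-19) and 6.17 ± 0.21 at 72 h (adjusted p = 7.04e-19). In Wnt3a cultures FST had 10.3 and 8.62 CPM at 0 h, 189.9 and 189 at 8 h and 12.4 and 16.8 at 24 h. Later FST values were 248 and 215 at 48 h, 100.8 at 72 h, 42.8 and 34.0 at 96 h and 126 and 152 at 120 h. The treated libraries lay above both of 0 h at each time, at 24 h by little. Changes were 4.40 ± 0.20 at 8 h (adjusted p = 1.64e-15), 0.72 ± 0.20 at 24 h (adjusted p = 0.00869), 4.69 ± 0.20 at 48 h (adjusted p = 1.63e-16), 3.49 ± 0.21 at 72 h (adjusted p = 5.64e-13), 2.10 ± 0.19 at 96 h (adjusted p = 7.27e-10) and 3.95 ± 0.20 at 120 h (adjusted p = 4.02e-15). At 24 h the change was 0.51 (adjusted p = 0.396) without Wnt3a 0 h replicate 2 and 0.47 (adjusted p = 0.197) without Wnt3a 24 h replicate 2. NODAL was also lower at 24 h than at 8 and 48 h in Wnt3a cultures, while LEFTY1 had its highest values at 24 h.

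Some small changes above were lost under other processing. With libraries scaled by their totals alone, the calls that ended were those of TDGF1 at CHIR 16 and 24 h, bcat 24 h and Wnt3a 120 h, GDF3 at CHIR 8 and 16 h, bcat 8 h and Wnt3a 48 h, CER1 at CHIR and Wnt3a 8 h, LEFTY2 at bcat 8 h and FST at Wnt3a 24 h. That scaling moved the median change of all genes by -0.355 to 0.436 (log2), and by more than 0.1 in 25 of 44 comparisons. The CER1 calls at 8 h of all 3 arms also ended with no filter on low counts, and those of TDGF1 at bcat 24 h and LEFTY1 at bcat 48 h ended without the 4 libraries named above.

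Neighbouring times show where each arm turned. Between 24 and 48 h of CHIR99021 all 7 genes fell, where 25.6% of all genes were called in either direction. NODAL changed by -7.20 ± 0.36 (adjusted p = 4.84e-15), TDGF1 by -5.83 ± 0.24 (adjusted p = 1.47e-17) and LEFTY1 by -3.54 ± 0.65 (adjusted p = 0.000106), and FST, which was still far above 0 h, by -0.68 ± 0.15 (adjusted p = 0.00108). From 48 to 72 h 4 of 7 rose (all genes, 13%), NODAL by 3.57 ± 0.42 (adjusted p = 6.58e-07), TDGF1 by 3.76 ± 0.25 (adjusted p = 7.56e-12) and FST by 1.06 ± 0.15 (adjusted p = 1.09e-05), with CER1 counted again at 72 h after 0 counts at 48 h. Earlier steps called 2 of 7 each, NODAL and LEFTY1 higher from 8 to 16 h (all genes, 11.4%), and GDF3 higher and LEFTY1 lower from 16 to 24 h (all genes, 8.09%). Both calls of the last step ended without 1 library, GDF3 at 1.30 (adjusted p = 0.188) without CHIR 16 h replicate 2 and LEFTY1 at -2.02 (adjusted p = 0.0519) without CHIR 24 h replicate 2.

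In Wnt3a cultures 5 of 7 changed from 8 to 24 h (all genes, 26.1%), with NODAL and FST lower, -2.54 ± 0.23 (adjusted p = 5.07e-09) and -3.68 ± 0.18 (adjusted p = 2.99e-14), and the antagonists LEFTY1, LEFTY2 and CER1 higher. From 24 to 48 h 5 changed (all genes, 19%), NODAL by 3.42 ± 0.23 (adjusted p = 5.07e-11), CER1 by 5.25 ± 0.25 (adjusted p = 2.78e-13) and FST by 3.97 ± 0.18 (adjusted p = 4.00e-15), with LEFTY1 the 1 that fell. From 48 to 72 h 4 changed (all genes, 2.45%), with LEFTY2 higher and NODAL, CER1 and FST lower, and from 72 to 96 h 5 fell (all genes, 13.2%). From 96 to 120 h all 7 changed (all genes, 22.8%), FST higher by 1.85 ± 0.16 (adjusted p = 4.02e-09) and 6 lower, CER1 with a change of -4.18 ± 0.26 (adjusted p = 9.90e-11). In the bcat line 4 rose from 8 to 16 h (all genes, 7.87%), NODAL by 1.79 ± 0.22 (adjusted p = 6.95e-06) and LEFTY1 by 2.66 ± 0.34 (adjusted p = 9.89e-06). From 16 to 24 h 5 changed (all genes, 1.37%), with FST higher and NODAL, LEFTY1, LEFTY2 and CER1 lower, NODAL with a change of -2.32 ± 0.22 (adjusted p = 7.13e-07). From 24 to 48 h 4 changed (all genes, 9%), TDGF1 lower with a change of -2.47 ± 0.18 (adjusted p = 1.93e-11) and CER1 higher by 3.43 ± 0.37 (adjusted p = 2.88e-07), and from 48 to 72 h 4 changed (all genes, 6.18%), NODAL by -4.19 ± 0.38 (adjusted p = 3.32e-08). Of the 58 calls over all steps, 14 ended when 1 library was left out.

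Changes from 0 h were then compared between arms at matched times, as the change in 1 arm minus that in the other. TDGF1 had a lower change with CHIR99021 than with Wnt3a from 24 h on, and NODAL a higher one at 24 h and a lower one at 48 h. In CHIR minus Wnt3a 2 of 7 were called at 8 h (all genes, 4.65%), 6 at 24 h (all genes, 9.95%), 6 at 48 h (all genes, 16.1%) and 6 at 72 h (all genes, 8.99%). For NODAL the difference was 4.56 ± 0.47 at 24 h (adjusted p = 1.59e-07), when its Wnt3a level had dipped, and -6.05 ± 0.78 at 48 h (adjusted p = 1.17e-06), when its CHIR level was back at that of 0 h. For FST it was 1.64 ± 0.25 at 8 h (adjusted p = 0.000172), 5.34 ± 0.26 at 24 h (adjusted p = 5.76e-14) and 2.95 ± 0.28 at 72 h (adjusted p = 1.21e-08), and 0.69 ± 0.25 at 48 h (adjusted p = 0.0622). For TDGF1 it was -1.15 ± 0.22 at 24 h (adjusted p = 0.000650), -6.96 ± 0.29 at 48 h (adjusted p = 1.84e-16) and -3.10 ± 0.25 at 72 h (adjusted p = 2.05e-10). For CER1 it was -3.71 ± 0.63 at 24 h (adjusted p = 0.000279), -2.91 (adjusted p = 0.0967) without Wnt3a 0 h replicate 2, and -8.48 ± 0.71 at 72 h (adjusted p = 4.16e-09).

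In CHIR minus bcat 1 of 7 was called at 8 h and 1 at 16 h, FST both times (all genes, 2.7% and 2.78%), 2 at 24 h (all genes, 4.95%), 5 at 48 h (all genes, 16.5%) and 2 at 72 h (all genes, 7.2%). The 2 early FST differences, 1.08 and 1.19, were among those that ended without 1 library. NODAL was lower with CHIR99021 at 48 h, -4.37 ± 0.85 (adjusted p = 0.000479), and higher at 72 h, 3.40 ± 0.94 (adjusted p = 0.0232), the last 2.01 (adjusted p = 0.714) without bcat 0 h replicate 2. TDGF1 likewise was lower at 48 h, -3.63 ± 0.31 (adjusted p = 6.71e-10), and higher at 72 h, 2.34 ± 0.28 (adjusted p = 2.35e-06). Where the difference of NODAL was not called, it was 1.31 ± 0.79 at 8 h (adjusted p = 0.460), 0.93 ± 0.77 at 16 h (adjusted p = 0.611) and 2.76 ± 0.84 at 24 h (adjusted p = 0.0542).

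In Wnt3a minus bcat 3 of 7 were called at 8 h (all genes, 5.6%), 6 at 24 h (all genes, 15%), 6 at 48 h (all genes, 12.1%) and all 7 at 72 h (all genes, 11.9%). At 72 h FST was lower with Wnt3a, -2.68 ± 0.30 (adjusted p = 2.42e-07), and the other 6 were higher, TDGF1 by 5.43 ± 0.29 (adjusted p = 6.81e-14), GDF3 by 4.41 ± 0.64 (adjusted p = 1.18e-05) and LEFTY2 by 5.51 ± 0.70 (adjusted p = 1.95e-06). For NODAL at 72 h the difference was 3.13 ± 0.88 (adjusted p = 0.0180) and was 1.74 (adjusted p = 0.721) without bcat 0 h replicate 2. For CER1 the differences of 5.58 ± 1.57 at 48 h (adjusted p = 0.0191) and 7.22 ± 1.73 at 72 h (adjusted p = 0.00591) were 5.49 (adjusted p = 0.338) and 7.12 (adjusted p = 0.242) without the same library. Over the 91 tests between arms 53 were called, 44 without the 4 libraries named above for depth and ribosomal RNA, and 17 of the 53 ended when 1 library was left out. Comparisons that share an arm share its libraries, so their values are set side by side and are not separate evidence.

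**Figure D5:**
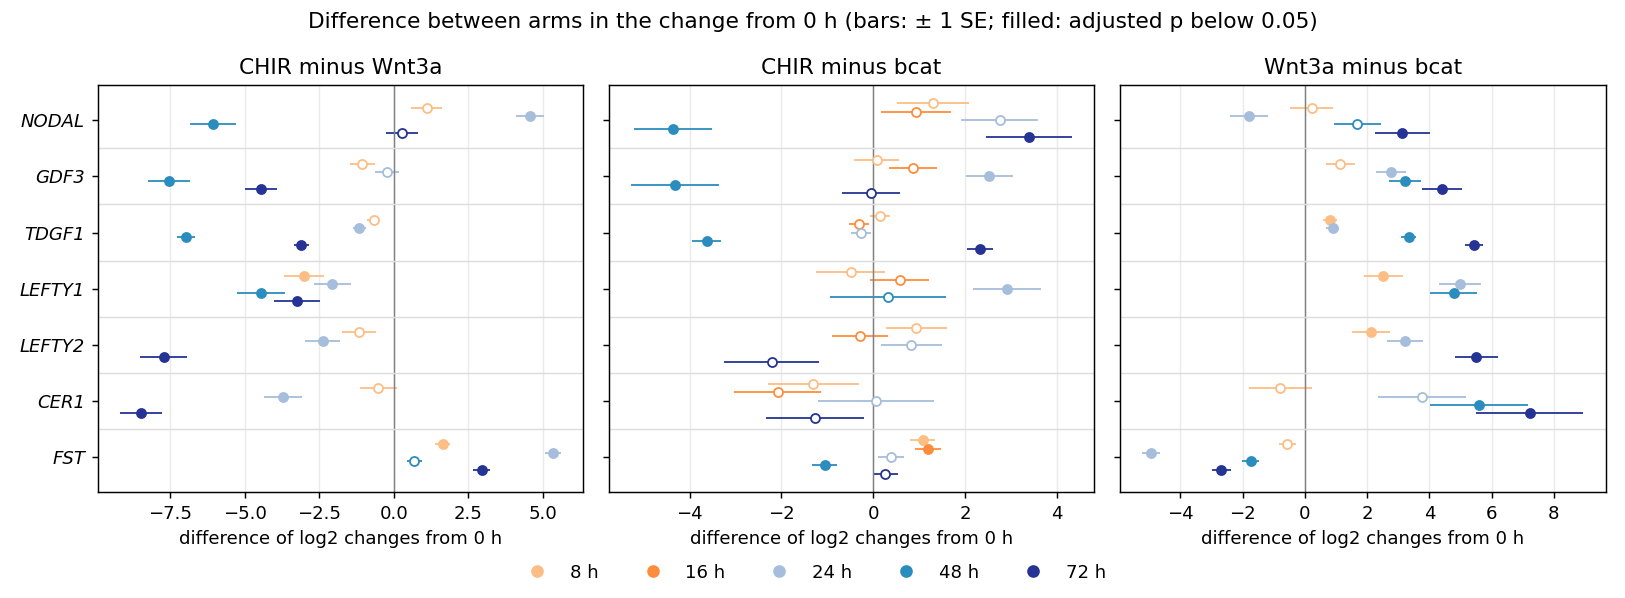
Difference between arms in the log2 change from 0 h for each gene at matched times, with bars of 1 standard error and filled points where the adjusted p was below 0.05; points whose group had 0 counts are left out. TDGF1 and GDF3 lay to the left of 0 in CHIR minus Wnt3a at 48 and 72 h and to the right of 0 in Wnt3a minus bcat.

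The arms did not start level. At 0 h 4 of 7 were lower in CHIR-arm than in Wnt3a-arm cultures (all genes, 10.9% called). The differences were -2.95 ± 0.42 (adjusted p = 3.08e-05) for NODAL, -2.29 ± 0.29 (adjusted p = 3.80e-06) for GDF3, -3.28 ± 0.43 (adjusted p = 7.70e-06) for LEFTY1 and, for LEFTY2, -2.07 ± 0.40 (adjusted p = 0.000905). For LEFTY1 the difference was -2.47 (adjusted p = 0.0777) without Wnt3a 0 h replicate 2. NODAL, for example, had 0.302 and 0.385 CPM in CHIR-arm 0 h cultures, against 3.56 and 2.66 CPM in Wnt3a-arm 0 h cultures, with no overlap. In the uninduced bcat line 3 of 7 were higher than in CHIR-arm 0 h cultures (all genes, 15.7% called), LEFTY1 by 2.04 ± 0.58 (adjusted p = 0.0157), LEFTY2 by 1.38 ± 0.47 (adjusted p = 0.0441) and TDGF1 by 0.45 ± 0.16 (adjusted p = 0.0471). Each of these 3 calls ended without 1 library, at adjusted p = 0.0986, 0.439 and 0.193 where it was weakest, LEFTY1 and LEFTY2 without bcat 0 h replicate 2 and TDGF1 without CHIR 0 h replicate 1. A change from 0 h in the Wnt3a arm starts from a higher level of NODAL, GDF3 and both LEFTY genes than one in the CHIR arm.

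Other genes of the pathway were counted from 6 lists, of which 50 of 51 genes were tested. The list of 13 targets shares SOX17, FOXA2, GATA6, HHEX and CXCR4 with the endoderm markers and NANOG with the stem cell markers. Its counts are therefore not separate evidence from those of the markers. The shares of all genes called at each time stand in the next paragraph. Among 13 targets of NODAL and activin signalling in embryos, 6, 9, 12, 12, 12 and 11 were called higher at 8, 24, 48, 72, 96 and 120 h of Wnt3a, and 0, 0, 0, 0, 0 and 1 lower. With CHIR99021 4, 6, 6, 6 and 8 were higher and 2, 1, 1, 4 and 3 lower at 8, 16, 24, 48 and 72 h, and in the induced bcat line 5, 6, 3, 8 and 5 were higher and 2, 1, 2, 3 and 3 lower. Their median log2 change at 48 h was 7.23 with Wnt3a, 2.03 with CHIR99021 and 2.57 in the bcat line, beside 0.00, 0.02 and 0.03 over all genes. Fitted values of targets with few or no counts at 0 h depend on edgeR's prior count. EOMES, a T-box factor of the streak, averaged 319 CPM at Wnt3a 48 h, against 0.544 CPM at Wnt3a 0 h (10.93 ± 0.66, adjusted p = 1.50e-10), and GSC, an organiser homeobox factor, 30.2 CPM, against 0.00734 CPM (adjusted p = 5.05e-14). NANOG, a pluripotency factor, averaged 0.656 CPM at CHIR 48 h, against 80.1 CPM at CHIR 0 h (-6.97 ± 0.36, adjusted p = 1.26e-13), at the time when TDGF1 and GDF3 were also lowest.

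The 15 other antagonists and feedback genes were called in both directions, and nothing is read from counts near the share of all genes. At CHIR 8, 16, 24, 48 and 72 h 1, 1, 1, 1 and 1 were higher and 5, 2, 4, 4 and 4 lower. All genes called higher at these times were 9.2%, 6.55%, 5.91%, 15.7% and 11.5%, and those called lower were 11.7%, 9.34%, 8.61%, 18.1% and 13.4%. In Wnt3a cultures 1, 3, 3, 2, 5 and 4 were higher and 1, 4, 3, 2, 3 and 3 lower, and in the bcat line 3, 3, 2, 3 and 2 were higher and 1, 0, 2, 2 and 3 lower. All genes called higher were 2.28%, 9.32%, 7.58%, 8.43%, 18.8% and 12.2% in Wnt3a cultures and 10.7%, 6.23%, 6.87%, 11.1% and 13.6% in the bcat line. All genes called lower were 1.18%, 10.9%, 8.56%, 7.94%, 21% and 15.6% in Wnt3a cultures and 8.01%, 4.69%, 5.95%, 10.1% and 13.6% in the bcat line. PMEPA1, a feedback inhibitor of SMAD signalling, averaged 22.5 CPM at CHIR 16 h, against 5.93 CPM at CHIR 0 h (1.92 ± 0.23, adjusted p = 4.25e-07), and 18.1 CPM at bcat 16 h, against 2.46 CPM at bcat 0 h (2.85 ± 0.31, adjusted p = 1.30e-07), the time of the NODAL peak in both arms. In Wnt3a cultures PMEPA1 averaged 18.2, 18.9 and 18.2 CPM at 8, 24 and 48 h, while NODAL averaged 89.6, 15.5 and 165 CPM. BAMBI, a pseudoreceptor, averaged 145 CPM at Wnt3a 120 h, against 10.5 CPM at Wnt3a 0 h (3.78 ± 0.20, adjusted p = 4.02e-15). SKIL, a SMAD corepressor, averaged 44.7 CPM at CHIR 48 h, against 121 CPM at CHIR 0 h (-1.44 ± 0.14, adjusted p = 8.97e-10).

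The remaining lists were short, and nothing is read from their counts. Over all genes 2.28% to 18.8% were called higher and 1.18% to 21% lower against 0 h. Among 7 receptors and coreceptors at most 2 were called higher and at most 3 lower at any time. CFC1, the other EGF-CFC coreceptor, averaged 27.6 CPM at Wnt3a 120 h, against 0.0220 CPM at Wnt3a 0 h (adjusted p = 3.14e-10). TDGF1 was lower at that time. CFC1 already had 8.56 CPM at Wnt3a 72 h (1 library) and a mean of 6.41 CPM at 96 h, when TDGF1 was not called. At bcat 72 h, where TDGF1 was called lower, CFC1 averaged 2.59 CPM, against 0.0535 CPM at bcat 0 h. TDGF1P3 averaged 0.168 CPM at CHIR 48 h, against 22.8 CPM at CHIR 0 h, and its reads cannot be fully told from those of TDGF1. Among 7 signal transducers at most 2 were higher and 2 lower at any time. FOXH1, the DNA-binding partner of the SMADs, averaged 108 CPM at CHIR 72 h, against 51.2 CPM at CHIR 0 h (1.07 ± 0.15, adjusted p = 2.40e-06), and 22.9 CPM at Wnt3a 120 h, against 68.2 CPM at Wnt3a 0 h (-1.58 ± 0.17, adjusted p = 1.11e-08). Among the 3 convertases, the proteases that mature NODAL, FURIN averaged 73.3 CPM at Wnt3a 96 h, against 17.6 CPM at Wnt3a 0 h (2.03 ± 0.20, adjusted p = 1.69e-09), and PCSK5 84.9 CPM at CHIR 48 h, against 9.58 CPM at CHIR 0 h (3.15 ± 0.19, adjusted p = 3.89e-14). Of 5 other ligands tested at most 2 were higher and 3 lower at any time, and INHBE, an inhibin beta subunit, averaged 16.7 CPM at CHIR 8 h, against 2.73 CPM at CHIR 0 h (2.61 ± 0.32, adjusted p = 3.17e-07).

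The genes whose pattern was most like that of each member were found by the correlation of mean log2(CPM + 1) over the 19 groups, among 13737 genes, as a description. The groups of 1 arm share their cultures' medium and 0 h source, and neighbouring times are not independent. The coreceptor TDGF1 ran with TDGF1P3 (r = 0.989), with which it shares reads, KIAA0040 (r = 0.954) and NANOG (r = 0.9497). The antagonist CER1 ran with GSC (r = 0.931), ACHE (r = 0.923) and NFASC (r = 0.921), and FST with ZEB2 (r = 0.937), SMYD2 (r = 0.937) and SP5 (r = 0.927). For NODAL the nearest were ABHD17B (r = 0.860), ALDH3A2 (r = 0.852) and PMEPA1 (r = 0.832). For LEFTY1 they were LEFTY2 (r = 0.794), TMEM63A (r = 0.792) and PPP1R16B (r = 0.776), and for LEFTY2 CHODL (r = 0.913), GDF3 (r = 0.866) and GABRE (r = 0.864). GDF3 ran with CHODL (r = 0.919), VAV1 (r = 0.916) and SYT4 (r = 0.906). Within the 7, FST ran against GDF3 (r = -0.571), TDGF1 (r = -0.493) and LEFTY2 (r = -0.460), and the member closest to NODAL was LEFTY1 (r = 0.643).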

How the data were processed

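Total RNA of H9 cells was sequenced from stranded libraries (TruSeq Stranded Total RNA, per the labels' protocols). The authors deposited estimated counts per gene from kallisto 0.43.0, per the submitters' processing notes; genome build: not given in the sources used here; annotation: likewise. The deposited values stood on a scale of 1 constant per library (0.265 to 6.58, found from the most frequent lowest values). They were divided by it, which left 57.5% to 81.4% of values up to 20 whole within 0.1, and rounded. 27 date-like symbols were kept as found.

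Counts of 37 libraries (2.45 M to 65.7 M) were fitted with edgeR 4.0.16 (R 4.3.3): TMM scaling, filterByExpr (24304 of 43412 genes), 19 group means, trended dispersions (0.00921 to 0.246), 18 residual degrees of freedom, quasi-likelihood tests and Benjamini-Hochberg adjustment within each comparison. Standard errors are the log2 change divided by the root of F. Groups at 0 counts are given as bounds from 3 counts over the group, and intervals are 95% and cover counting error only. The lone Wnt3a 72 h library was assumed to vary like the other groups. Alternatives were DESeq2 1.42.0, a replicate block, other scalings, filters, sample sets and summed near-copies. The fit was also run on simulated counts with known changes in fewer genes than most comparisons called here, and nothing is concluded from that run.

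The 7 genes and the lists were chosen with earlier results of these data known. Pathway genes are named, 3 at most per arm and list, by largest called change at 5 CPM or more in the higher group.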

Additional observations from a re-analysis of the deposited data

Results flagged for a closer look

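The results below are the differences between arms in the log2 change from 0 h that passed the threshold of edgeR's quasi-likelihood test (adjusted p below 0.05). All 53 are given, 1 arm minus the other, and no explanation was weighed.

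In CHIR99021 minus Wnt3a cultures, the differences at 8 h were LEFTY1 -3.01 and FST 1.64. At 24 h they were NODAL 4.56, TDGF1 -1.15, LEFTY1 -2.07, LEFTY2 -2.38, CER1 -3.71 and FST 5.34. At 48 h they were NODAL -6.05, TDGF1 -6.96, GDF3 -7.54, LEFTY1 -4.44, LEFTY2 -8.77 and CER1 -16.86. At 72 h they were TDGF1 -3.10, GDF3 -4.45, LEFTY1 -3.25, LEFTY2 -7.72, CER1 -8.48 and FST 2.95. The calls that ended when 1 library was left out, each with its value where the adjusted p was highest, were LEFTY1 at 8 h (-2.34, adjusted p = 0.289, without CHIR 0 h replicate 2), LEFTY1 at 24 h (-1.40, adjusted p = 0.480, without CHIR 0 h replicate 2), LEFTY2 at 24 h (-1.81, adjusted p = 0.110, without Wnt3a 0 h replicate 2), LEFTY1 at 72 h (-2.58, adjusted p = 0.197, without CHIR 0 h replicate 2) and CER1 at 24 h (-2.91, adjusted p = 0.0967, without Wnt3a 0 h replicate 2). The CER1 value at 48 h and LEFTY2 value at 48 h compare with a group at 0 counts, depend on edgeR's prior count and are no measured folds. GDF3 at 48 h and LEFTY2 at 72 h rest on 1 and 2 counts in CHIR99021 cultures.

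In CHIR99021 cultures minus the induced bcat line, the difference of FST was 1.08 at 8 h and 1.19 at 16 h. At 24 h they were GDF3 2.53 and LEFTY1 2.91. At 48 h they were NODAL -4.37, TDGF1 -3.63, GDF3 -4.32, CER1 -11.28 and FST -1.06. At 72 h they were NODAL 3.40 and TDGF1 2.34. The calls that ended when 1 library was left out, each with its value where the adjusted p was highest, were FST at 8 h (0.95, adjusted p = 0.139, without bcat 0 h replicate 1), LEFTY1 at 24 h (2.70, adjusted p = 0.111, without CHIR 24 h replicate 2), NODAL at 72 h (2.01, adjusted p = 0.714, without bcat 0 h replicate 2), FST at 16 h (1.08, adjusted p = 0.0928, without bcat 0 h replicate 1) and FST at 48 h (-0.83, adjusted p = 0.138, without bcat 0 h replicate 2). The CER1 value at 48 h compares with a group at 0 counts, depends on edgeR's prior count and is no measured fold. GDF3 at 48 h rests on 1 count in CHIR99021 cultures.

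In Wnt3a cultures minus the induced bcat line, the differences at 8 h were TDGF1 0.81, LEFTY1 2.52 and LEFTY2 2.12. At 24 h they were NODAL -1.80, TDGF1 0.89, GDF3 2.76, LEFTY1 4.98, LEFTY2 3.21 and FST -4.95. At 48 h they were TDGF1 3.33, GDF3 3.22, LEFTY1 4.77, LEFTY2 10.15, CER1 5.58 and FST -1.74. At 72 h they were NODAL 3.13, TDGF1 5.43, GDF3 4.41, LEFTY1 9.82, LEFTY2 5.51, CER1 7.22 and FST -2.68. The calls that ended when 1 library was left out, each with its value where the adjusted p was highest, were TDGF1 at 8 h (0.70, adjusted p = 0.0896, without Wnt3a 0 h replicate 1), NODAL at 24 h (-1.50, adjusted p = 0.147, without bcat 0 h replicate 1), LEFTY2 at 8 h (1.83, adjusted p = 0.311, without bcat 0 h replicate 2), CER1 at 48 h (5.49, adjusted p = 0.338, without bcat 0 h replicate 2), NODAL at 72 h (1.74, adjusted p = 0.721, without bcat 0 h replicate 2), LEFTY1 at 8 h (2.82, adjusted p = 0.0964, without bcat 0 h replicate 2) and CER1 at 72 h (7.12, adjusted p = 0.242, without bcat 0 h replicate 2). The LEFTY1 value at 72 h and LEFTY2 value at 48 h compare with a group at 0 counts, depend on edgeR's prior count and are no measured folds.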

How the results depend on the processing

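Calls over the 7 genes at an adjusted p below 0.05 were 24 for CHIR99021, 30 for Wnt3a and 26 for bcat against 0 h, 58 for steps, 53 between arms and 7 between untreated cultures. Over 10 settings that include the main fit and exclude leaving out 1 library, these ran from 19 to 25, 26 to 31, 23 to 29, 42 to 58, 40 to 58 and 4 to 7. Leaving out 1 library gave 20 to 24, 21 to 30, 20 to 27, 55 to 59, 42 to 53 and 4 to 7. The count between untreated cultures was 4 without the 4 libraries in doubt. Of the values called, 1 turned its direction, LEFTY1 at Wnt3a 96 h, which was 0.54 with LEFTY1 and LEFTY2 summed to 1 row. Library totals without TMM ended 44 calls, and the cause was not tested. No pairing of the samples by replicate number was detected: over the 15 pairs of groups in an arm the correlation of same-numbered deviations ran from -0.0516 to 0.0490. A low correlation cannot exclude pairing, since the deviations also carry counting noise. With the replicate block the counts were 24, 30, 26, 58, 53 and 5. Depth limits the low genes: LEFTY1, LEFTY2 and CER1 had 0 counts in some groups.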
